A study of Neurospora crassa with 4 samples.

Results

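Transcripts of 6 genes for nonsense-mediated decay (NMD) and the exon junction complex were followed in *Neurospora crassa* cultures that lack the cleavage factor CFIm and in control cultures. The genes were listed by locus: *upf1* (NCU04242, the clock mutant *prd-6*), *upf2* (NCU05267), *upf3* (NCU03435), *eIF4A3* (NCU01234), *y14* (NCU03226) and *mago* (NCU04405). All 6 were present among the 7793 genes of the expression table, and the list names loci and sets no threshold on a measured value. The annotation gives *upf1* the symbol *prd-6*, and the gene lists of the study name *upf2*, *upf3* and *y14*. The same lists give NCU01234 as *drh-12*, an initiation factor of the eIF4A family. The names eIF4A3 for NCU01234 and Mago for NCU04405 come with the list of 6 and were not checked by sequence.

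The ΔCFIm strain had *cpsf5* and *cpsf6* each replaced by the *hphR* marker and carried the luciferase reporter *csr-1*::*cbox-luciferase*::*barR*. The control strain carried the same reporter with both CFIm genes intact, and its label adds mating type MAT A. Biological duplicates of each strain were grown for 72 hours on cellophane over agar at 0.25% glucose (w/v) and 0.17% arginine (w/v), at 25°C in constant light, and poly(A)-end reads were counted on each gene by 3′ End Sequencing. Each genotype is represented by 1 strain, so that strain background and genotype cannot be told apart, and p-values measure only the spread between duplicates.

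NMD removes mRNAs on which translation ends in an unusual context, such as before an intron position or ahead of a long 3′ UTR. UPF1 is the RNA helicase at its centre, and UPF2 and UPF3 connect UPF1 to the terminating ribosome and, in animals, to exon junction complexes. The core of that complex is the DEAD-box helicase eIF4A3 clamped on the RNA by the Y14 and Mago heterodimer, which the spliceosome leaves upstream of spliced junctions. In *Neurospora*, NMD acts on the transcript of casein kinase I, *ck-1a*, and so bears on the length of the circadian period, which is why the pathway belongs to a study of nutritional compensation of the clock. CFIm, made of CPSF5 and CPSF6, helps to choose the site at which a pre-mRNA is cleaved and polyadenylated.

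The labels were checked on the deleted genes. Transcripts of *cpsf5* stood at 2.96 and 0 normalized counts in ΔCFIm replicates 1 and 2, against 214 and 192 in control replicates 1 and 2. Transcripts of *cpsf6* stood at 25.7 and 26.0 in ΔCFIm, 17.2% of the control mean, against 141 and 160 in controls. A second difference between the strains was seen at the mating type locus, where *matA-1* (NCU01958, chosen after its values were seen) had 0 and 0 normalized counts in ΔCFIm and 152 and 160 in controls. Between 5572762 and 6053869 reads were counted on genes per library, and 1 read was worth 0.967 to 1.05 normalized counts. Of 4 conidiation genes used as markers of spore-forming tissue, *eas*, *con-6*, *con-10* and *fl*, none passed the limma test between genotypes and all 4 overlapped, where 8.00% of all tested genes were called and 52.4% did not overlap. In bulk tissue of this kind, fewer cells of a type and less RNA per cell cannot be told apart.

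None of the 6 genes passed the test of a change between ΔCFIm and control. Fold changes ran from −0.16 to 0.26 on the log2 scale, with 3 genes above 0 and 3 below 0, and their median was 0.03 against −0.0088 for all tested genes. The median size of the difference, regardless of sign, was 0.15 for the 6 genes and 0.24 for all tested genes. The test was limma on log2(normalized count + 1) over 6949 genes, with Benjamini-Hochberg adjustment and a threshold of 0.05. It called 556 genes, or 8.00% of those tested (4.62% higher and 3.38% lower in ΔCFIm), and 0 of the 6. At an unadjusted p under 0.05 limma named 1563 of all tested genes and 0 of the 6, and edgeR and DESeq2 on the recovered reads also called 0 of the 6. The 95% intervals of the 6 genes together covered 0.645-fold (from *y14*) to 1.58-fold (from *upf3*). The interval of each gene was narrower, such as 0.724-fold to 1.24-fold for *upf1*. Changes inside a gene's own interval were not resolved with 2 cultures per genotype.

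**Figure D1:**
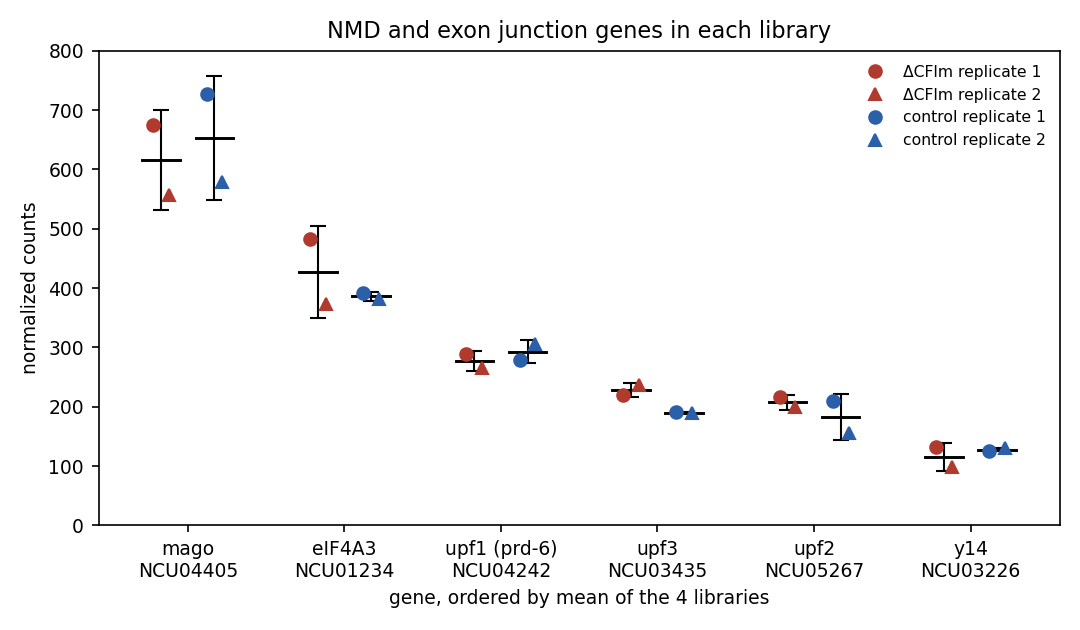
Normalized counts of the 6 genes in each library, from the most to the least abundant, with ΔCFIm left of control; circles are replicate 1, triangles replicate 2, and bars the mean and SD (n = 2). Only *upf3* has both ΔCFIm libraries (219 and 237) above both control libraries (191 and 189).

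In level, *mago* was the most abundant of the 6 and *y14* the least. A read here marks 1 polyadenylated end, so that normalized counts per gene do not grow with transcript length. Over the 4 libraries *mago* ranged from 556 to 727 normalized counts, *eIF4A3* from 372 to 482, *upf1* from 266 to 306, *upf3* from 189 to 237, *upf2* from 156 to 216 and *y14* from 98.9 to 131. The ranges of neighbours in this order did not overlap, with the exception of *upf3* and *upf2*. Among all 7793 genes the mean level of *mago* lay at percentile 79.8 and that of *y14* at percentile 36.9. The other genes lay between, *eIF4A3* at percentile 69.9, *upf1* at 60.1, *upf3* at 50.8 and *upf2* at 48.9. In the study, 7793 is also the number of genes with an annotated 3′ UTR, a part of all annotated genes. It adds that some 3′ UTR annotations end short of the poly(A) reads. What this does to levels and percentiles was not tested. Divided by annotated gene length, mean levels were 419 normalized counts per kb for *mago*, 193 for *eIF4A3*, 65.9 for *upf3*, 59.6 for *y14*, 53.9 for *upf1* and 38.6 for *upf2*. The first 2 places were the same in both orders, while the other 4 genes changed order. As a read marks 1 end whatever the length, the values per kb also carry gene length. They are not a second measure of abundance.

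Among the UPF genes, *upf1* was measured at 289 and 266 normalized counts in the ΔCFIm duplicates, against 279 and 306 in control replicates 1 and 2. The gene lies on linkage group V at 5327537 to 5332820 (assembly NC12), on the minus strand. The highest and the lowest of its 4 values differed little, and the genotypes overlapped. Its means were 277 ± 16.2 in ΔCFIm and 293 ± 19.2 in controls (SD, n = 2 each), a log2 difference of −0.08 (SE 0.18, 95% interval −0.47 to 0.31, limma adjusted p = 0.841). The interval around the helicase transcript covers both a fall and a rise of moderate size. The study lists *upf1* among genes with alternative poly(A) sites, and the positions of poly(A) sites were not analysed here.

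The transcript of *upf2*, which encodes the adaptor between UPF1 and UPF3, had 216 and 199 normalized counts in ΔCFIm, against 210 and 156 in controls (linkage group IV, 5532449 to 5537507). Control replicate 2 was low and the other 3 libraries lay close together. Means were 208 ± 12.5 in ΔCFIm and 183 ± 38.5 in controls, with a log2 difference of 0.20 (SE 0.20, interval −0.25 to 0.64, limma adjusted p = 0.626). Without control replicate 2 the difference was −0.018, so that its direction rests on that library. Control replicate 1 held 1.35-fold more *upf2* than control replicate 2, a gap between replicates exceeded by 13.1% of tested genes.

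The transcript of *upf3*, for the partner of UPF2 that binds exon junction complexes in animals, had 219 and 237 normalized counts in ΔCFIm, against 191 and 189 in controls (linkage group II, 727364 to 730533). Both ΔCFIm libraries lay above both controls. Such a separation was found for 52.4% of tested genes (25.9% higher and 26.5% lower in ΔCFIm) and for 1 of the 6 genes, so that it does not set *upf3* apart. Means were 228 ± 12.2 in ΔCFIm and 190 ± 1.85 in controls, a log2 difference of 0.26 (SE 0.18, interval −0.13 to 0.66, limma adjusted p = 0.438). The difference was 0.21 to 0.32 with any library left out. It passed 0.05 only in a per-gene comparison with equal variances and no adjustment, one of the alternatives tried.

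Relative to *upf1* in the same library, *upf3* stood at 76.0% and 89.1% in ΔCFIm, against 68.4% and 61.5% in controls. This is a log2 difference of 0.34 between the mean ratios, and the exact permutation test gave p = 0.33, two-sided, the smallest that 2 libraries against 2 allow. The ratio of *upf2* to *upf1* was 75.0% and 74.8% in ΔCFIm and 75.2% and 50.8% in controls (exact permutation p = 1). The sums of the 3 UPF genes were 724 and 701 normalized counts in ΔCFIm, against 681 and 651 in controls. In all, 5 ratios between genes were compared, and no design of 2 against 2 can pass 0.05 in this test.

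Of the exon junction genes, *eIF4A3* had 482 and 372 normalized counts in ΔCFIm, against 392 and 381 in controls (linkage group V, 3308067 to 3310171, minus strand). ΔCFIm replicate 1 was the highest and ΔCFIm replicate 2 the lowest of the 4 libraries. Means were 427 ± 77.6 in ΔCFIm and 386 ± 7.66 in controls, a log2 difference of 0.13 (SE 0.19, interval −0.27 to 0.53, limma adjusted p = 0.727). Without ΔCFIm replicate 1 the difference was −0.052. The gene is in the study's list of 3′ UTRs whose poly(A) peaks collapse in ΔCFIm, and on the level of the whole gene it did not pass the test. Its 3′ end lies 33 bp from the next annotated gene, NCU01233, which had 1743 and 2093 normalized counts in ΔCFIm and 1621 and 1504 in controls. How reads between the genes were assigned was not tested. The corresponding gap of *upf1* was 130 bp.

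The transcript of *y14*, for the RNA-binding partner of Mago, had 131 and 98.9 normalized counts in ΔCFIm, against 126 and 130 in controls (linkage group I, 4971568 to 4973606). ΔCFIm replicate 2, with 99 reads, was low and the other 3 libraries agreed closely. Means were 115 ± 23 in ΔCFIm and 128 ± 2.49 in controls, a log2 difference of −0.16 (SE 0.22, interval −0.63 to 0.30, limma adjusted p = 0.715). Without ΔCFIm replicate 2 it was 0.040. The widest interval of the 6 genes belonged to *y14*, which also had the fewest reads.

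The transcript of *mago* had 675 and 556 normalized counts in ΔCFIm, against 727 and 579 in controls (linkage group IV, 3470990 to 3472501). Within each genotype replicate 1 exceeded replicate 2, by 1.21-fold in ΔCFIm and 1.25-fold in controls, and the genotypes overlapped. Means were 616 ± 83.9 in ΔCFIm and 653 ± 104 in controls, a log2 difference of −0.08 (SE 0.19, interval −0.49 to 0.32, limma adjusted p = 0.841). Without control replicate 1 it was 0.081, and without ΔCFIm replicate 2 it was 0.057.

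The proteins Y14 and Mago form a heterodimer, and their transcripts were unequal in every library. There were 5.14 and 5.63 *mago* ends for each *y14* end in ΔCFIm replicates 1 and 2, against 5.77 and 4.47 in control replicates 1 and 2. The log2 ratio of *y14* to *mago* differed by −0.08 between ΔCFIm and control, within the spread of the duplicates (SD 0.09 in ΔCFIm and 0.26 in controls, exact permutation p = 1, two-sided). The ratio of *eIF4A3* to *mago* was 71.4% and 67.0% in ΔCFIm and 53.9% and 65.8% in controls (exact permutation p = 0.33).

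All 3 exon junction transcripts were lower in ΔCFIm replicate 2 than in ΔCFIm replicate 1, by 1.29-fold for *eIF4A3*, 1.33-fold for *y14* and 1.21-fold for *mago*. Gaps at least as wide between the ΔCFIm duplicates were common, with 30.5%, 26.6% and 43.9% of tested genes beyond those of *eIF4A3*, *y14* and *mago*, and ΔCFIm replicate 1 was the higher library for 62.2% of tested genes. The sum of the 3 genes was 1288 and 1028 normalized counts in ΔCFIm, against 1245 and 1090 in controls. Of the 6 genes, ΔCFIm replicate 1 held the highest value for 3 and ΔCFIm replicate 2 the lowest for 4. The 2 libraries also differed in the spore gene *con-10*. It had 52848 normalized counts in ΔCFIm replicate 1 and 103957 in ΔCFIm replicate 2, beside 89366 and 69319 in controls. In ΔCFIm replicates 1 and 2, *con-6* had 31517 and 37593 and *fl* had 3013 and 3770. The marker *eas* went the other way, with 611475 and 545275. The part of these differences in the exon junction values was not tested.

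The translation initiation factor *eif4A* (NCU07420) belongs to the same helicase family as *eIF4A3* and was much more abundant. It had 7563 and 7347 normalized counts in ΔCFIm, against 5188 and 6108 in controls. Both ΔCFIm libraries lay above both controls, and the log2 difference of 0.40 (SE 0.18, interval 0.01 to 0.80) did not pass after adjustment (limma adjusted p = 0.206). There were 15.7 and 19.7 *eif4A* ends for each *eIF4A3* end in ΔCFIm, against 13.2 and 16.0 in controls, and the exact permutation test of this ratio gave p = 0.667.

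**Figure D2:**
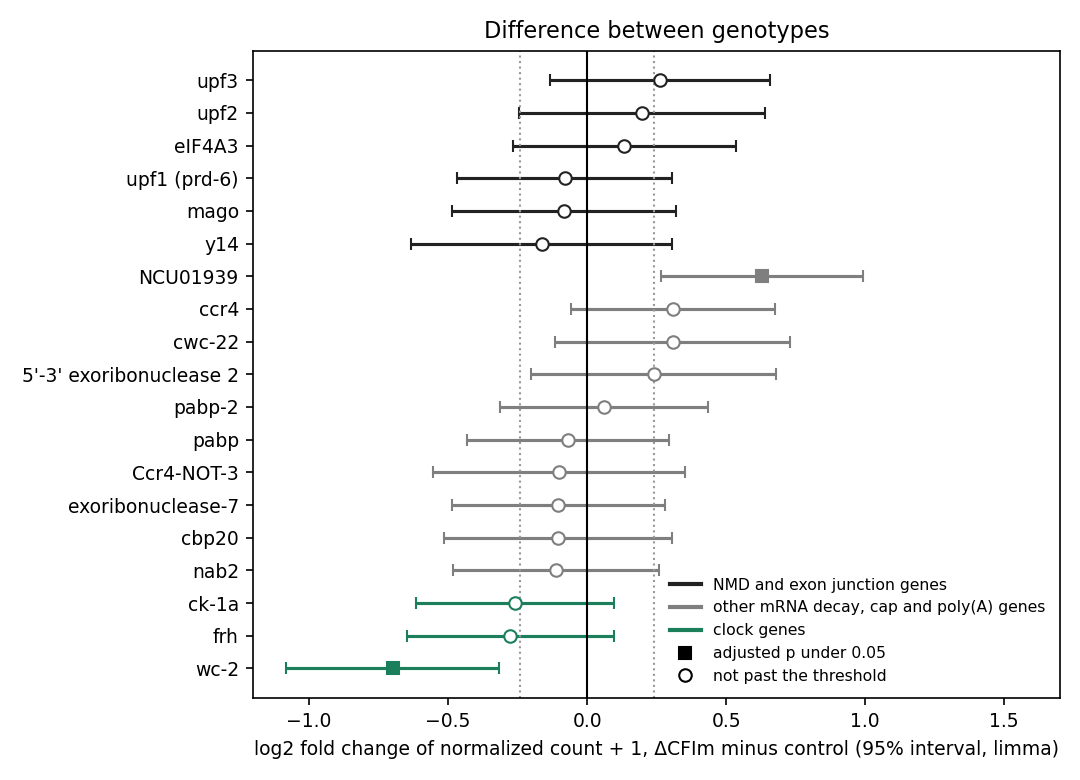
Log2 fold change (ΔCFIm minus control, on normalized count + 1) with its 95% limma interval for the 6 genes, the other mRNA decay, cap and poly(A) genes and 3 clock genes; filled squares passed an adjusted p of 0.05, and dotted lines mark the median size of the difference over all tested genes, 0.24. All 6 intervals of the NMD and exon junction genes include 0.

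Beyond the 6 genes, 10 further genes of mRNA decay, cap binding and poly(A) binding could be found by name in the annotation or in the gene lists of the study. These names cover only a part of the pathway. Of the 10, 1 rose, 0 fell and 9 did not pass, with a median log2 difference of −0.0030. With 8.00% of all tested genes called, and 4.62% called higher in ΔCFIm, 1 of 10 is near the background. The gene that rose was NCU01939, annotated in the study as a nonsense-mediated mRNA decay protein (linkage group I, 1939316 to 1944145). It had 848 and 930 normalized counts in ΔCFIm, against 551 and 597 in controls, without overlap. The means of 889 ± 58.0 in ΔCFIm and 574 ± 31.9 in controls differed by 0.63 on the log2 scale (SE 0.17, interval 0.27 to 0.99, limma adjusted p = 0.0363), a 1.55-fold rise.

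The call for NCU01939 was close to the threshold. Its adjusted p by limma was 0.279 without control replicate 1 and 0.162 without control replicate 2, while the log2 difference remained 0.57 and 0.69. It was also lost in limma without a variance trend (adjusted p = 0.0928) and without the filter on low values (0.143). The gene lies 77.1 kb from *matA-1*, whose transcript was found in controls alone, and 868 kb from the deleted *cpsf6*. Of 38 other tested genes within 100 kb of NCU01939, 3 were called, or 7.89%, beside 8.00% over all tested genes. Both the 38 and the 3 include *matA-1* itself. The deletions and the difference at the mating type locus cannot be told apart in these strains.

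The remaining 9 genes gave values on both sides of 0. For the spliceosome factor *cwc-22* (NCU00066), whose human counterpart brings eIF4A3 to the spliceosome, there were 170 and 159 normalized counts in ΔCFIm, against 126 and 139 in controls (log2 difference 0.31, limma adjusted p = 0.386). The cap-binding subunit *cbp20* (NCU00210) had 206 and 200 in ΔCFIm, against 239 and 198 in controls (log2 difference −0.10, limma adjusted p = 0.798). Neither passed the test, and only *cwc-22* was without overlap.

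Among nucleases, the 5′-3′ exoribonuclease 2 (NCU01643), of a family that degrades RNA from its 5′ end, had 319 and 376 normalized counts in ΔCFIm and 248 and 347 in controls (log2 difference 0.24, limma adjusted p = 0.535). Exoribonuclease-7 (NCU08945) had 257 and 249 in ΔCFIm and 279 and 264 in controls, lower without overlap (log2 difference −0.10, limma adjusted p = 0.786). The deadenylase gene *ccr4* (NCU07779), which shortens poly(A) tails, had 2020 and 1862 in ΔCFIm and 1680 and 1458 in controls. Its mean level was the highest of the 10 genes and the genotypes did not overlap, with a log2 difference of 0.31 and a limma adjusted p of 0.313. Of the 10 genes, 4 were without overlap (3 higher and 1 lower in ΔCFIm), or 40%, beside 52.4% of all tested genes. The Ccr4-NOT complex gene NCU09001 had 275 and 234 in ΔCFIm and 227 and 326 in controls (log2 difference −0.10, limma adjusted p = 0.823).

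For the poly(A)-binding proteins, the extremes were *pabp-2* (NCU03946) with 426 and 387 normalized counts in ΔCFIm and 383 and 395 in controls, and *nab2* (NCU16397) with 496 and 477 in ΔCFIm and 493 and 562 in controls. Their log2 differences were 0.06 and −0.11, with limma adjusted p values of 0.874 and 0.756. The cytoplasmic poly(A)-binding protein gene *pabp* (NCU04799) had 1334 and 1360 in ΔCFIm and 1513 and 1316 in controls. All 3 of these genes overlapped between genotypes. The study reports altered poly(A) sites of *pabp-2* in ΔCFIm and lists *nab2* among genes with alternative poly(A) sites. Positions of poly(A) sites were not analysed here, and the counts above are for whole genes.

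Of 3 clock transcripts set beside the pathway, 1 passed the test, and in each both ΔCFIm libraries lay below both controls. Over all tested genes 3.38% were called lower in ΔCFIm, and 26.5% had both ΔCFIm libraries below both controls. The NMD target *ck-1a* (NCU00685) had 2247 and 2234 normalized counts in ΔCFIm, against 2675 and 2686 in controls, a log2 difference of −0.26 with a limma adjusted p of 0.389. Its duplicates lay close together in both genotypes, and it passed 0.05 in the per-gene comparison with equal variances and no adjustment. From the same libraries, the study reports a modest but significant decrease of *ck-1a* in ΔCFIm. Its test was also made per gene at 0.05, and no adjustment is stated. The direction is the same here, but *ck-1a* did not pass limma after adjustment over all tested genes. The helicase gene *frh* (NCU03363) had 536 and 626 in ΔCFIm, against 684 and 720 in controls (limma adjusted p = 0.376). The white collar gene *wc-2* (NCU00902), for a transcription factor of the clock, fell to 351 and 297 in ΔCFIm, against 513 and 537 in controls (log2 difference −0.70, limma adjusted p = 0.0281). The call for *wc-2* was lost without control replicate 1 (adjusted p = 0.114), without control replicate 2 (0.201), without the variance trend (0.0754) and without the filter on low values (0.164). No NMD mutant was analysed here, so that these values do not measure NMD activity.

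**Figure D3:**
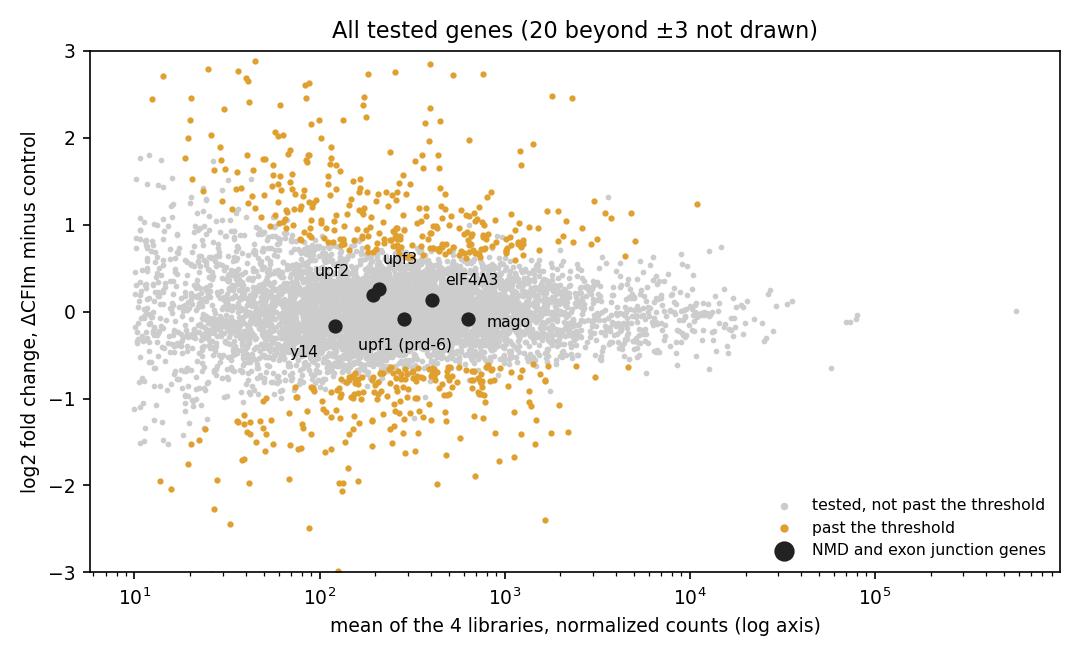
Log2 fold change (ΔCFIm minus control) against the mean of the 4 libraries in normalized counts (log axis) for the 6949 tested genes; orange points passed the threshold, black points are the 6 NMD and exon junction genes, and 20 genes beyond 3 in either direction are not drawn. The 6 genes, between −0.16 and 0.26, lie within the band of genes that did not pass.

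The genes whose pattern over the 4 libraries was most like that of *upf1* were NCU10430, NCU03662 and NCU03261. Likeness was the Euclidean distance between log2 values after each gene's mean was taken out, among 2910 genes with a mean within 2-fold of that of *upf1*. NCU10430 had 317 and 295 normalized counts in ΔCFIm and 306 and 337 in controls, at a distance of 0.0141. The distances of NCU03662 and NCU03261 were 0.0189 and 0.0315. With 4 libraries and a pattern this flat, 375 of the candidate genes lay within a distance of 0.2, so that the likeness singles out no gene.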

How the data were processed

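The authors prepared stranded QuantSeq 3′ REV libraries (75 bp single-end reads), and the submitters' processing notes name FastQC, STAR and HTSeq. Per the study's methods the reads were aligned to the NC12 genome and counted per gene. The strand setting of the counting is not given in the sources used here. The deposited table holds, per gene and library, a normalized signal, which is a read count multiplied by 1 factor per library, and it is called normalized counts here. Dividing by the value of 1 read gave whole reads for 100% of values (tolerance 0.01 reads), and the 4 libraries had equal totals after scaling.

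Samples were grouped by the genotype in their labels. The 6949 of 7793 genes that averaged 10 or more normalized counts were tested with limma (version 3.58.1, run under R version 4.3.3) on log2(normalized count + 1), ΔCFIm minus control, with a variance trend and Benjamini-Hochberg adjustment (threshold 0.05). Fold changes on this scale are slightly smaller than those of the reads for rare transcripts. Ratios between genes were compared by exact two-sided permutation tests. A value of 3 reads, 2.90 to 3.15 normalized counts, was taken as the floor, which covers counting error only. Of the locus tags, 7792 matched the RefSeq annotation (NC12), which gave coordinates and symbols, and other names came from the study's gene lists. The genes named are the 6 listed, the deleted genes, the helicase paralog, 3 clock genes, those called or with the highest or lowest fold change in each group of further decay genes, and the 3 genes nearest to *upf1*, with 4 conidiation markers. *matA-1* and *pabp* were added to these with their values known. No sequence was used here.

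The alternatives were pseudocounts of 0.1 and 5, no filter, a minimum mean of 50, quantile normalization, scaling by the median of ratios, a block for replicate number, no variance trend, edgeR version 4.0.16 and DESeq2 version 1.42.0 on recovered reads, each library left out, and per-gene tests. An edgeR run with the authors' totals was added after seeing the data. The scripts were tested on simulated data. The genes and lists were chosen with earlier results of these data known.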

Additional observations from a re-analysis of the deposited data

How the results depend on the processing

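None of the 6 NMD and exon junction genes was called in any of 15 alternatives fitted across all genes (*upf3* alone passed a per-gene comparison without adjustment), and the lowest adjusted p of any of them was 0.291, for *eIF4A3* with limma without ΔCFIm replicate 2. The count over all genes was less stable, with 556 genes called as reported, 30 without the filter on low values, where *cpsf5* and *cpsf6* were also lost, and 338 to 1116 when 1 library was left out. It was 726 by edgeR and 504 by DESeq2, and 390 without the variance trend. Without ΔCFIm replicate 1, 43.1% of calls were higher in ΔCFIm, against 57.7% with all libraries. The causes were not tested. The single further decay gene that was called, NCU01939, was lost without the filter, without the variance trend and without either control library, each of which gave 0 calls, and the range with 1 library left out was 0 to 1. With 2 libraries per genotype, *y14* (99 reads in its lowest library) is measured least precisely.

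Replicate numbers are shared between genotypes in the labels, and nothing says what a shared number stands for. Deviations of the libraries numbered 1 from their genotype means correlated weakly over 6949 genes (Pearson 0.137, Spearman 0.160), and 3 of the 6 genes deviated to the same side. With the replicate block 890 genes were called and 0 of the 6, the lowest adjusted p among them being 0.371 by limma. The block cannot move a difference between genotype means here, so that the −0.08 for the log2 ratio of *y14* to *mago* is the same by construction. NCU01939 was also called with the block.

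Directions turned in some runs that left out 1 library. The log2 difference then ranged from −0.018 to 0.41 for *upf2*, −0.052 to 0.32 for *eIF4A3*, −0.37 to 0.040 for *y14*, −0.25 to 0.081 for *mago* and −0.26 to 0.10 for the ratio of *y14* to *mago*. Among other genes it ranged from −0.24 to 0.032 for *cbp20*, −0.0018 to 0.48 for NCU01643, −0.36 to 0.16 for NCU09001, −0.17 to 0.034 for *pabp*, −0.0069 to 0.13 for *pabp-2* and −0.14 to 0.00025 for NCU10430. For the conidiation genes it ranged from −0.073 to 0.093 for *eas*, −0.044 to 0.21 for *con-6*, −0.57 to 0.40 for *con-10* and −0.016 to 0.31 for *fl*, and *con-6* was at −0.10 under quantile normalization. None of these genes was called in the comparison as reported. The directions of *upf1* and *upf3* held with each library left out. The log2 difference ranged from −0.15 to −0.013 for *upf1*, close to 0 at 1 end, and from 0.21 to 0.32 for *upf3*.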
